A study of Mus musculus with 6 samples.

Results

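The 9 genes described here encode small leucine-rich proteoglycans: decorin (Dcn), lumican (Lum), biglycan (Bgn), fibromodulin (Fmod), osteoglycin (Ogn), osteomodulin (Omd), asporin (Aspn), prolargin (Prelp) and podocan (Podn). They were chosen by gene symbol from the 26264 genes counted in each library, and all 9 were listed. The libraries were bulk RNA sequencing of an immortalized mouse brown preadipocyte line, with 1 library for each of 6 conditions. Fibroblast growth factor 8 (FGF8) was given to the preadipocytes at 5.5 nM for 48 h or was left out, and cells were harvested at day 0, 3 or 9. The comparison asked what the pretreatment did to the preadipocytes and what of it was still seen after differentiation.

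The line derived from the stromal vascular fraction of interscapular brown adipose tissue (iBAT) of wild-type Bl6N mice and was immortalized with SV40 large T antigen. All cells therefore carried the large T antigen, untreated cells included. Day 0 was the end of the 48 h treatment window. From then on, treated and untreated cells both received the adipogenic mix of insulin, T3, dexamethasone, IBMX, indomethacin and rosiglitazone, followed by differentiation medium. The last time point is labelled only D7 and is read here as the paper's day 9, which is 2 days of induction plus 7 days of differentiation medium. The label D3 is read as the paper's day 3, which already includes the 2 days of induction, so the 2 labels are taken to count from different starts. The paper describes its day 3 cells as not differentiated and not proliferating and those of day 9 as mature adipocytes, whereas the labels call both adipocytes. The labels call the control cells untreated, the methods speak of vehicle, and the labels' growth protocol describes primary white cells rather than this line. Each condition was 1 culture and 1 library, so a difference between 2 libraries had no replicate check.

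Small leucine-rich proteoglycans are secreted core proteins built of leucine-rich repeats, most of which carry chondroitin, dermatan or keratan sulfate chains. They bind collagen fibrils and shape fibril thickness and spacing, and several of them hold growth factors such as TGF-beta in the matrix or engage cell surface receptors. In adipose tissue, stromal cells and adipocyte precursors are a main source of these proteins. Decorin, biglycan and asporin form one class of the family, lumican, fibromodulin, osteomodulin and prolargin another, and osteoglycin and podocan belong to separate classes.

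Several members lie next to each other in the genome. In the GRCm39 build with the GENCODE M39 annotation, Aspn (chr13:49697609-49721057), Omd (chr13:49735938-49746298) and Ogn (chr13:49761349-49780412) follow each other on the plus strand, with gaps of 14880 and 15050 bases. Dcn (chr10:97315275-97358155) and Lum (chr10:97400990-97408577) are plus strand neighbours separated by 42834 bases. Prelp (chr1:133837335-133857971, minus strand) and Fmod (chr1:133964992-133976015, plus strand) are 107020 bases apart. Bgn (chrX:72527208-72539541, plus strand) and Podn (chr4:107871988-107889534, minus strand) have no other member beside them.

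The 250 bases before the start of the canonical transcript are shown for the chromosome 13 trio, whose 3 members were all far lower after FGF8 at day 0, and for the Dcn and Lum pair, whose day 0 and day 9 differences ran in opposite directions. The sequences were read from GRCm39 on the plus strand, at chr13:49697669-49697918 for Aspn, chr13:49735688-49735937 for Omd, chr13:49761099-49761348 for Ogn, chr10:97315025-97315274 for Dcn and chr10:97400740-97400989 for Lum. Capitals mark matches, on either strand, to the TATA box letters TATAAA in Aspn and Ogn and to the TEAD site letters GGAATG in Dcn.
Aspn: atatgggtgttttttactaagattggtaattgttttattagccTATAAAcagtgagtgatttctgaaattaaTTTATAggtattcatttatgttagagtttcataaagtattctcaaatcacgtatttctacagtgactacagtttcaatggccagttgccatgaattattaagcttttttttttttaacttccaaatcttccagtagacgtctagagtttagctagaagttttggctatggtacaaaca
Omd: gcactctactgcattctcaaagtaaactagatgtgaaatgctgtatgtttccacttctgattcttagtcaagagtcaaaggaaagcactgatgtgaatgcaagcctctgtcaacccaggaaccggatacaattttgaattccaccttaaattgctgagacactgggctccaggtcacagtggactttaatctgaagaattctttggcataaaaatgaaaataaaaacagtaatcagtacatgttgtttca
Ogn: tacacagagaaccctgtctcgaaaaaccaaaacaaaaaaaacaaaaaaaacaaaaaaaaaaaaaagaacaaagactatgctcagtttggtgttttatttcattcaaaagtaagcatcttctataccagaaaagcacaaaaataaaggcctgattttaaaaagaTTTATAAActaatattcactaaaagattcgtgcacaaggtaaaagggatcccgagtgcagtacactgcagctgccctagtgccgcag
Dcn: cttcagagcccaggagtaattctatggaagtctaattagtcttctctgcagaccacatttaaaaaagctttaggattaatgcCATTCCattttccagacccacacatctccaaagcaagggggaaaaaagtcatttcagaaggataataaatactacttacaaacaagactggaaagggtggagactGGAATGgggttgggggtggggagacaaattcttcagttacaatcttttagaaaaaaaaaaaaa
Lum: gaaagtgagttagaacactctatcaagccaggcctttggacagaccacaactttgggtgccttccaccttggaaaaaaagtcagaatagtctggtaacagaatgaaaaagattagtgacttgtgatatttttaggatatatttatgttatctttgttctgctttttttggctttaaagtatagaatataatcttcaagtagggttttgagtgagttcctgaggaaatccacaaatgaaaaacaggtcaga
TATAAA was found in the windows of Aspn (207 and 178 bases before the start) and Ogn (87 and 85 bases before it, the 2 matches overlapping each other), and not in the other 7 members. Of the windows of the same length before all 21770 protein-coding genes, 11.9% held it. GGAATG was found in 1 member window, that of Dcn (168 and 63 bases before the start), against 12.1% of all windows. The AP-1 letters TGANTCA (6.17% of all windows), the ETS letters CGGAAG (14.3%) and the SMAD palindrome GTCTAGAC (0.239%) were in none of the 9. The GC content was 30% for Aspn, 34% for Ogn, 38.4% for Omd and for Dcn, and 35.6% for Lum, below the median of 53.2% over all windows, while Podn (74.4%), Bgn (64%) and Prelp (55.2%) were above it and Fmod (51.2%) was just under it. These matches describe letters only and do not show that a factor binds there.

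The libraries held 16403254 to 38551551 counts, and no gene was tested between 2 libraries. A normalized count here is the count divided by the DESeq2 median-of-ratios size factor of its library. A log2 fold change is that of normalized count plus 1, and its 95% interval was derived from the pair's counts by exact binomial (Clopper-Pearson) limits, which cover counting error only and not the variation between cultures. A gene is called lower or higher where the difference is at least 2-fold and the pair averages at least 20 normalized counts, a filter that all 9 members passed at every day. In bulk RNA, fewer expressing cells and less RNA per cell cannot be told apart. The cell type labels were compared with marker genes. The summed normalized count of 8 adipocyte markers, including Pparg, Adipoq and Fabp4, was 731.5 (untreated) and 521.1 (FGF8) at day 0, rising to 243074 and 471328 by day 3, and reaching 422918 and 502673 by day 9. Day 0 cells thus carried little adipocyte RNA, and cells of both arms carried much of it from day 3.

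Directly after FGF8 treatment, at day 0, the family split. Aspn, Ogn, Omd, Fmod, Prelp and Podn were lower in the FGF8 library, Lum was higher, and Dcn and Bgn stayed within 2-fold. Thus 6 of 9 members were lower, where 10.8% of the 12657 genes that passed were lower, and 1 of 9 was higher, where 7.27% of genes were. The median log2 fold change of the members was -3.65, against 0.05 over all genes.

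The widest differences at day 0 were those of Aspn and Ogn in the chromosome 13 trio. Aspn, which encodes a collagen- and TGF-beta-binding protein of the decorin class, measured 5010.3 normalized counts in untreated cells and 32.0 in FGF8 cells at day 0 (3411 and 25 counts). The untreated level was 156.5-fold above the FGF8 level (log2 fold change -7.25, interval -7.92 to -6.73). Ogn, which encodes osteoglycin (mimecan), measured 38443 and 476.2 normalized counts (26172 and 372 counts), and its log2 fold change was -6.33 (interval -6.49 to -6.19). Omd, a keratan sulfate proteoglycan known from bone, went from 302.6 to 11.5 normalized counts (206 and 9 counts), with a log2 fold change of -4.60 and a wide interval of -5.86 to -3.76. All 3 genes were therefore at least 13.6-fold lower even at the interval bound nearest to no difference. In TPM (a level per unit of transcript length, scaled to the same total in each library and computed from the counts and the length of the union of a gene's exons), Ogn stood at rank 57 of all genes in untreated cells and at rank 7730 in FGF8 cells.

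At days 3 and 9, the trio's levels in FGF8 cells were above those of day 0 and still below those of untreated cells. Aspn stood at 5797 normalized counts in untreated and 2648 in FGF8 cells at day 3 (log2 fold change -1.13, interval -1.19 to -1.07) and at 2543 and 1645 at day 9 (-0.63, interval -0.71 to -0.55). Ogn stood at 10827 and 2738 at day 3 (-1.98, interval -2.04 to -1.93) and at 7975 and 1823 at day 9 (-2.13, interval -2.19 to -2.06). Omd stood at 208.7 and 73.7 at day 3 (-1.49, interval -1.87 to -1.14) and at 237.1 and 68.3 at day 9 (-1.78, interval -2.16 to -1.45). The FGF8 library had the lower value of the pair for each gene on each day, and Ogn and Omd remained past 2-fold on all 3 days while Aspn at day 9 did not.

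Dcn and Lum took another course. Dcn, which encodes the collagen- and TGF-beta-binding proteoglycan decorin, measured 25737 normalized counts in untreated and 46078 in FGF8 cells at day 0 (17522 and 35992 counts; log2 fold change 0.84, interval 0.81 to 0.87). At day 3 it measured 10242 and 2866 (-1.84, interval -1.89 to -1.78), and at day 9 it measured 26683 and 2511 (-3.41, interval -3.46 to -3.36). Lum, which encodes the keratan sulfate proteoglycan lumican, measured 835.8 and 1991 normalized counts at day 0 (569 and 1555 counts; 1.25, interval 1.11 to 1.39), 394.5 and 129.9 at day 3 (-1.60, interval -1.87 to -1.34) and 1966 and 139.8 at day 9 (-3.80, interval -4.04 to -3.59). Before differentiation, Lum was thus higher in the FGF8 library, and Dcn had its higher value there but stayed within 2-fold (1.79-fold). Both genes were lower in the FGF8 library afterwards, with the widest gap at day 9, where untreated cells had 10.6-fold more Dcn and 14.1-fold more Lum.

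Bgn, the biglycan gene, whose product binds TGF-beta and, when free in the matrix, the innate receptors TLR2 and TLR4, was the most abundant member. It measured 72997 and 67939 normalized counts in untreated and FGF8 cells at day 0 (log2 fold change -0.10, interval -0.12 to -0.09). The values were 71453 and 25998 at day 3 (-1.46, interval -1.48 to -1.44) and 48441 and 26241 at day 9 (-0.88, interval -0.90 to -0.87). Bgn was nearly level at day 0, 2.75-fold lower at day 3 and just inside 2-fold at day 9.

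Prelp encodes prolargin, a protein that links collagen to heparan sulfate of basement membranes. By point value, it was the member whose level within each arm changed most from day 0 to the later days. Its normalized count was 495.0 in untreated and 38.4 in FGF8 cells at day 0 (337 and 30 counts), which gave a log2 fold change of -3.65 (interval -4.28 to -3.15). It was 5531 and 8957 at day 3 (0.70, interval 0.65 to 0.75) and 12619 and 13293 at day 9 (0.08, interval 0.04 to 0.11). The deficit of the FGF8 library at day 0 was no longer seen at day 3, where that library had the higher value.

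Fmod, which encodes the collagen-binding fibromodulin, was one of the scarcer members and rests on few counts at day 0. It had 54 counts in untreated and 1 count in FGF8 cells at day 0, a 62.0-fold ratio with an interval of 10.7 to 2492. Its normalized counts were 190.9 and 81.4 at day 3 (log2 fold change -1.22, interval -1.59 to -0.87) and 205.9 and 288.6 at day 9 (0.49, interval 0.26 to 0.72). Fmod was therefore lower in the FGF8 library at days 0 and 3, and at day 9 it had the higher value there but stayed within 2-fold. Podn, which encodes the collagen-binding protein podocan, measured 477.4 and 171.6 normalized counts at day 0 (-1.47, interval -1.78 to -1.18), 757.3 and 162.1 at day 3 (-2.22, interval -2.45 to -2.0) and 469.9 and 102.4 at day 9 (-2.19, interval -2.48 to -1.92). It was the member whose difference varied least between the days.

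**Figure D1:**
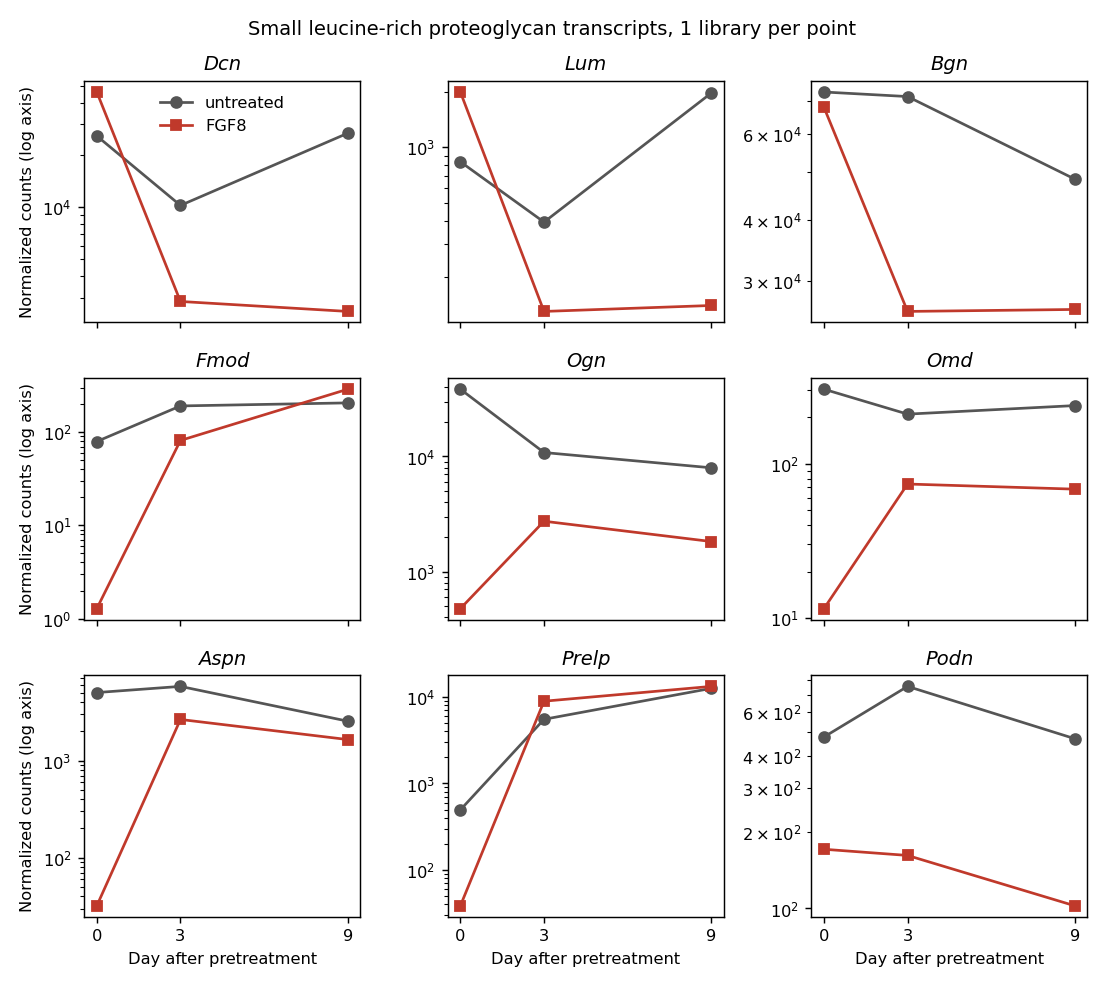
Normalized counts (log axis) of the 9 members in the untreated and FGF8 libraries at day 0, 3 and 9, 1 library per point. Aspn, Ogn, Omd, Fmod and Prelp show their widest gap at day 0, and Dcn and Lum at day 9, where Dcn stood at 26683 and 2511.

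Across the family, the 2-fold rule found the most members lower at day 3, whereas a 4-fold rule found the fewest there (1, against 5 at day 0 and 4 at day 9). The share of all genes at a 4-fold rule is not given here, so whether that drop is particular to the members cannot be told. At day 3, 8 of 9 members were lower (12.1% of all genes) and 0 of 9 higher (3.8% of all genes), with a median log2 fold change of -1.49 against 0.08 over all genes. The exception was Prelp. At day 9, 5 of 9 were lower (8.74% of all genes) and 0 of 9 higher (1.12% of all genes), with a median of -1.78 against 0.08; these were Lum, Dcn, Podn, Ogn and Omd. Ogn, Omd and Podn were lower at all 3 days, which is 3 of 9 members where 3.79% of 13256 genes were.

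**Figure D2:**
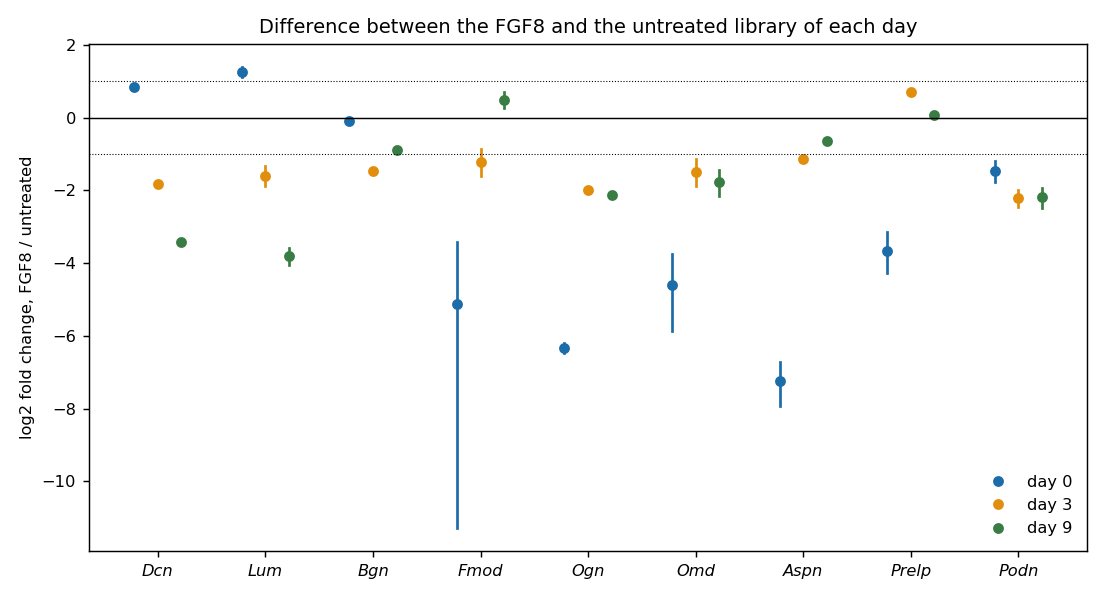
Log2 fold change of FGF8 against untreated cells for each member at day 0, 3 and 9, with the 95% counting interval as a bar and dotted lines at 2-fold. Members spread from -7.25 (Aspn) to 1.25 (Lum) at day 0, while at day 3 they lie between -2.22 (Podn) and 0.70 (Prelp).

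The course over days differed between the arms. In untreated cells, 3 members were lower at day 3 than at day 0 (15.5% of all genes), namely Ogn (log2 fold change -1.83, interval -1.86 to -1.79), Dcn (-1.33, interval -1.37 to -1.29) and Lum (-1.08, interval -1.29 to -0.88), and 2 were higher (19.5% of all genes), namely Prelp (3.48, interval 3.32 to 3.65) and Fmod (1.26, interval 0.81 to 1.74). From day 3 to day 9, untreated cells had 1 lower member (4.42% of all genes), Aspn (-1.19, interval -1.25 to -1.13), and 3 higher members (8.77% of all genes), Lum (2.31, interval 2.15 to 2.49), Dcn (1.38, interval 1.35 to 1.42) and Prelp (1.19, interval 1.14 to 1.24). Dcn and Lum in untreated cells thus dipped at day 3 and recovered, and Prelp was higher at each later day.

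In cells pretreated with FGF8, 3 members were lower at day 3 than at day 0 (22% of all genes), namely Dcn (-4.01, interval -4.05 to -3.96), Lum (-3.93, interval -4.17 to -3.72) and Bgn (-1.39, interval -1.41 to -1.37). Prelp (7.83, interval 7.35 to 8.43), Aspn (6.33, interval 5.81 to 7.00), Omd (2.58, interval 1.70 to 3.85), Ogn (2.52, interval 2.37 to 2.68) and Fmod were higher, which is 5 of 9 members where 24.1% of all genes were. The Fmod value rests on the 1 count of day 0, with a ratio of 63.6 and an interval of 11.2 to 2534. From day 3 to day 9, 0 of 9 members were lower (5.4% of all genes) and 1 was higher (8.16% of all genes), Fmod (1.81, interval 1.52 to 2.14). Dcn and Lum, which recovered after day 3 in untreated cells, stayed near their day 3 levels in the FGF8 arm, with log2 fold changes of -0.19 (interval -0.26 to -0.12) and 0.11 (interval -0.20 to 0.41).

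The members together took 0.599% of all counts in untreated and 0.504% in FGF8 cells at day 0. By day 3 these shares were 0.425% and 0.164%, and by day 9 they were 0.370% and 0.164%. The exact binomial 95% intervals did not overlap within any day (0.595% to 0.603% against 0.501% to 0.508% at day 0). They cover counting error only and are narrow at these totals, so this says nothing about variation between cultures. The FGF8 library had the smaller share each time, and the pair lay closest together at day 0.

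Compared per length, Bgn had the highest TPM of the family in all 6 libraries and under each of 3 definitions of transcript length. It held 50.9% of the members' summed TPM in untreated and 71.6% in FGF8 cells at day 0, then 65.0% and 56.6% (day 3), then 52.2% and 55.7% (day 9). The member that ranked next changed with the condition. It was Ogn (29.5%) in untreated and Dcn (25.2%) in FGF8 cells at day 0, Aspn (12.2%) in untreated and Prelp (18.7%) in FGF8 cells at day 3, and Dcn (14.9%) in untreated and Prelp (27.1%) in FGF8 cells at day 9. These ranks were kept with the longest and with the canonical transcript, but the shares moved. With the canonical transcript, Ogn held 16.6% in untreated cells at day 0 and Aspn 6.51% in untreated cells at day 3. Places were also length-dependent: Dcn and Prelp in untreated cells at day 3, Dcn and Ogn in FGF8 cells at day 9, and the low members Lum, Omd, Podn and Fmod swapped with the length used. With 1 library per condition the spread of a rank was not measured.

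**Figure D3:**
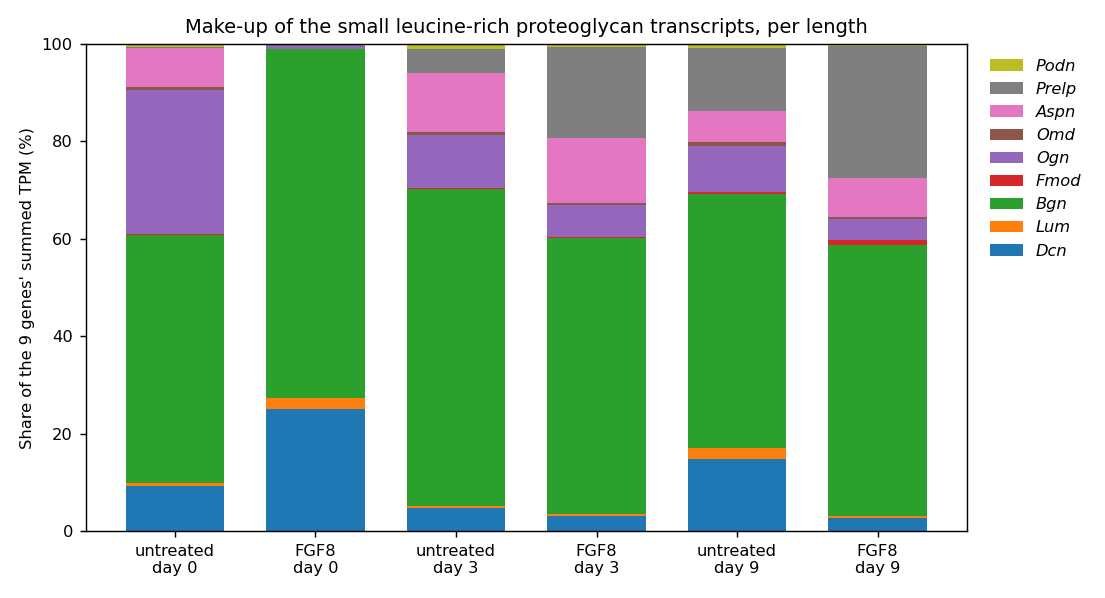
Share (percent) of the members' summed TPM held by each of the 9 genes in each of the 6 libraries. Bgn is the largest part of every bar, Ogn is small in FGF8 cells at day 0 (0.553% against 29.5% in untreated cells), and the Prelp part grows to 27.1% in FGF8 cells at day 9.

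Whether FGF8 had an effect common to all 3 days was tested by edgeR's quasi-likelihood method, which took day as the blocking term, with Benjamini-Hochberg adjustment over 14569 genes, so that the 3 days stood in for replicates and a response that varied between days counted as error. 1 member, Podn, fell (log2 fold change -1.99, SE 0.24, adjusted p = 0.0464, lower in 3 of 3 pairs), where 1.25% of all genes were called lower; its adjusted p ranged from 1.26e-09 to 0.732 over the alternatives. Podn was no longer called without day 3 (adjusted p = 0.247), without day 9 (0.287), without the day block (0.732) or with DESeq2 size factors (0.0530), in the same edgeR test. The fits without day 3, without day 9 and without the day block called 0 of all genes in either direction, so the lost call is not particular to Podn there. 0 members were called higher, where 0.0206% of all genes were, and 0 reached an unadjusted p under 0.05 in that direction, with DESeq2 also calling 0.

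The fitted log2 fold change was below 0 for all 9 members. It was -3.27 for Ogn (SE 1.03) and -2.47 for Omd (SE 0.68), both lower in 3 of 3 pairs, with edgeR quasi-likelihood adjusted p = 0.164 (0.000728 to 0.957 over the alternatives) and 0.140 (0.00158 to 1.00). Aspn had -2.31 (SE 1.41), Dcn -1.56 (SE 0.91), Lum -1.44 (SE 1.09), Fmod -1.33 (SE 0.99), Bgn -0.84 (SE 0.33) and Prelp -0.68 (SE 0.89), with edgeR adjusted p between 0.222 and 0.675. Without day 0, 7 members were called lower by the same edgeR test, Dcn, Lum, Aspn, Omd, Ogn, Podn and Bgn, while the share of all genes called lower also grew, to 11.6%. Without day 3 or without day 9, edgeR called 0 members lower, and it also called 0 of all genes lower. In each of these fits 3 members were lower at an unadjusted edgeR p under 0.05, for which the share of all genes is not given here. The DESeq2 Wald test with the same terms called 3 members lower, Omd, Ogn and Podn, against 8.85% of the genes it tested.

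In the same edgeR fit, with treatment as a block, Prelp rose from day 0 to day 3 (log2 fold change 5.18, SE 1.20, adjusted p = 0.0237, higher in 2 of 2 pairs, 0.000140 to 0.0520 over the alternatives) and from day 0 to day 9 (5.95, SE 1.22, adjusted p = 0.0143, higher in 2 of 2 pairs, 5.70e-06 to 0.0206). The day 3 call was lost without the day 9 libraries (edgeR adjusted p = 0.0520), and the day 9 call was kept without those of day 3 (0.0206). Prelp was the 1 member called higher in each contrast, where 26.2% and 29.2% of all genes were called. No member was called lower from day 0 to day 3 (0 of 9, against 19.8% of all genes) or from day 0 to day 9 (0 of 9, against 24.8%). At an unadjusted edgeR p under 0.05, 1 and 0 members were lower, and DESeq2 called 1 member lower in each, Dcn (16.9% of the genes it tested) and Bgn (26.1%). From day 3 to day 9, edgeR called 0 members lower (0.00686% of all genes) and 0 higher (0.0618%), with 0 at an unadjusted p under 0.05 in either direction and 0 by DESeq2. Without day 0, however, the same edgeR test called Aspn, Ogn and Podn lower (3 of 9, against 10.2% of all genes in that fit) and Prelp higher (1 of 9, against 11% of all genes).

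The genes around the members were compared in the annotation. In the chromosome 13 trio's neighbourhood, Ecm2, a matrix gene of the same family, was also lower in the FGF8 library, with log2 fold changes of -3.47 (day 0), -1.76 (day 3) and -1.66 (day 9). On the other side of the trio, Nol8, a nucleolar protein gene, had 0.70, 0.29 and 0.07. Cenpp, a kinetochore gene on the minus strand, spans all 3 members, and its exons overlap those of Aspn and Ogn. Whether the authors counted by strand is not given in the sources used here, so reads of these exons may not be separable. Cenpp had at most 411 counts and log2 fold changes of 0.56, 0.71 and 0.37, the direction opposite to that of Aspn, Omd and Ogn.

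Beside Lum lie Kera and Epyc, further small leucine-rich proteoglycan genes. Kera had 39 counts in untreated and 17 in FGF8 cells at day 0. Epyc had 33 and 0 counts at day 9, which is 9.60-fold lower when the 0 is replaced by a floor of 3 counts. That ratio leaves out the counting error of the untreated count and is not an interval bound. The few counts of Kera and Epyc lay in the direction opposite to that of Lum at day 0 and in the same direction at day 9. Beside Prelp, Optc had 31 and 0 counts at day 0 (11.9-fold lower with the same floor, again no interval bound). Atp2b4, a plasma membrane calcium pump gene, had log2 fold changes of -4.19, -0.31 and -0.50. Btg2, an antiproliferative gene past Fmod, had -1.25, -0.10 and 0.42. Near Podn, Scp2 had -0.15, 0.67 and 0.20, and Slc1a7 averaged under 20 normalized counts in each pair. Near Bgn, Haus7 had 0.58, 0.47 and 0.12, and Atp2b3 was at 0 in all libraries but that of FGF8 at day 0, where it reached 11.5 normalized counts. Dusp9, a MAP kinase phosphatase gene farther along from Bgn, was higher in the FGF8 library at day 0, at 175.4 against 11.8 normalized counts (log2 fold change 3.79), with 0.36 and 0.34 on the later days.

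**Figure D4:**
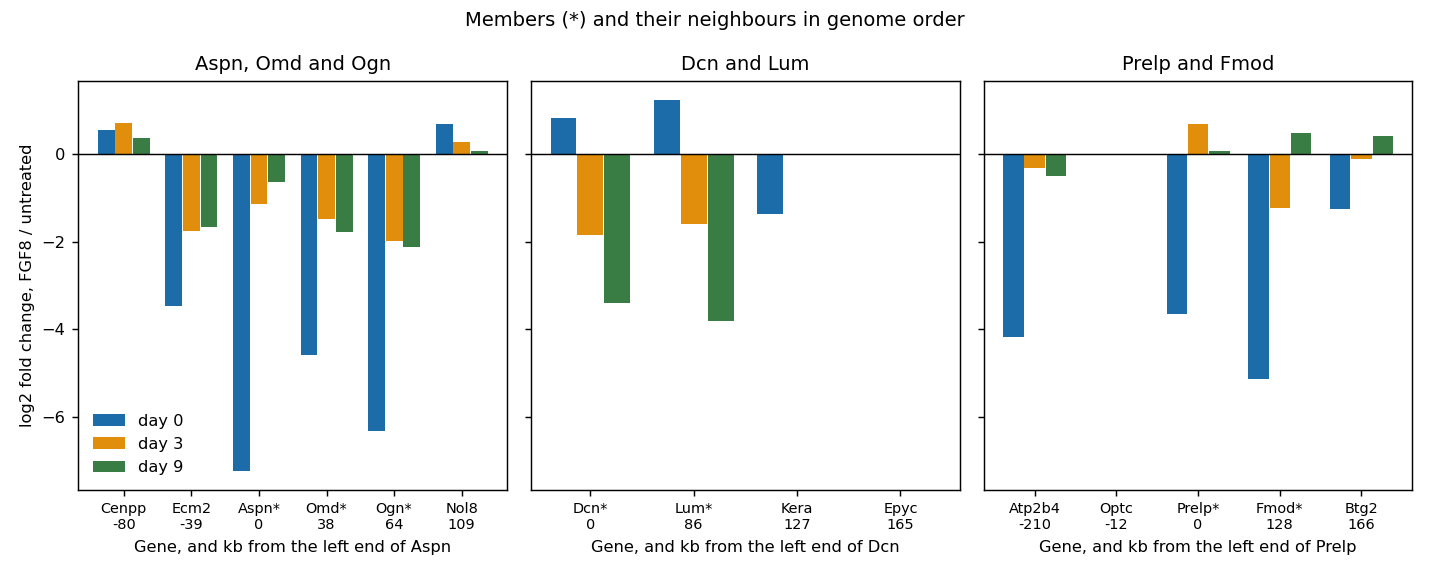
Log2 fold change of FGF8 against untreated cells by day for the genes around the 3 groups of neighbouring members, placed by distance (kb) along the chromosome. Bars are left out where a pair averages under 20 normalized counts or a library is at 0; Ecm2, Aspn, Omd and Ogn are all negative while Nol8 and Cenpp are positive.

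The genes whose profile over the 6 libraries was most like the mean standardized profile of the 9 members were, out of 11372, H2-T23 (Pearson r = 0.996), Col1a2 (0.996), Ptx3 (0.995), Kif26b (0.994) and B2m (0.991), given as a description over 6 libraries that include both treatments and all days. Col1a2, a chain of type I collagen, measured 134974 (untreated) and 28238 (FGF8) normalized counts at day 0, then 120140 and 41147 by day 3, then 116509 and 41999 by day 9. Col1a2 was lower in each FGF8 library than in the untreated library of the same day, and so were H2-T23, Ptx3, Kif26b and B2m. At day 0, H2-T23 measured 4271 (untreated) and 699.0 (FGF8) normalized counts, and B2m measured 60107 and 20989.

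Genes that work with the members were followed as lists. The 11 collagen partners are fibrillar, fibril-associated and type VI collagens and the cross-linking enzyme Lox. Of them, 9 of 11 that passed were lower at day 0, 6 of 10 at day 3 and 6 of 11 at day 9. None was higher on any day, and the medians were -2.40, -1.31 and -1.17. Col14a1 (log2 fold change -5.44) and Col12a1 (-3.91), both fibril-associated collagens, and Lox (-4.45) led at day 0, and the fibrillar collagen Col3a1 led at day 3 (-1.70) and day 9 (-2.36). The edgeR test called 1 of 11 lower, Col5a1 (log2 fold change -1.39, lower in 3 of 3 pairs).

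Among 8 proteases that act on the core proteins, 3 of 7 were lower at day 0, 7 of 7 at day 3 and 6 of 7 at day 9, with medians of -0.96, -2.0 and -1.81. Adamts1 (-4.19) and Adamts5 (-3.01) led at day 0, while the stromelysin gene Mmp3 led at day 3 (-4.94) and day 9 (-6.33). The edgeR test called 1 of 7 lower, Adamts5. Among 13 growth factor and receptor partners, 5 of 13 were lower and 1 higher at day 0, 9 of 11 lower at day 3 and 6 of 10 lower at day 9, with medians of -0.62, -1.58 and -1.22. The receptor gene Kdr had -7.21 at day 0, and the ligand gene Tgfb2 had -2.67, -2.24 and -3.13 on the 3 days. Of these partners edgeR called 2 of 12 lower, Tgfb2 and Egfr.

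The enzymes that build the sugar chains moved less at day 0. Of 24 such genes, 1 of 23 was lower and 2 were higher at day 0, 7 of 22 were lower at day 3 and 5 of 23 at day 9, with medians of 0.10, -0.75 and -0.58. Csgalnact1, which starts chondroitin chains, had 1.29 at day 0, and the keratan sulfate sulfotransferase gene Chst2 had -1.68 at day 3 and -1.92 at day 9. The edgeR test called 1 of 23 lower, Dse, a dermatan sulfate epimerase gene. Of 18 other matrix and cell surface proteoglycans, 3 of 14 were lower and 3 higher at day 0, 5 of 14 lower at day 3 and 3 of 12 lower at day 9, with medians of -0.28, -0.85 and -0.61. Esm1 (2.37) and Cspg4 (1.31) were higher and Vcan, the versican gene, was lower (-1.40) at day 0. Of 9 other small leucine-rich proteoglycans, 3 of 5 were lower at day 0, 1 lower and 1 higher of 5 at day 3 and 1 lower of 5 at day 9, with medians of -1.36, 0.12 and -0.13. Tsku, the tsukushi gene, was the higher one (1.05 at day 3). The background shares for all of these counts are those given above for the members.

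**Figure D5:**
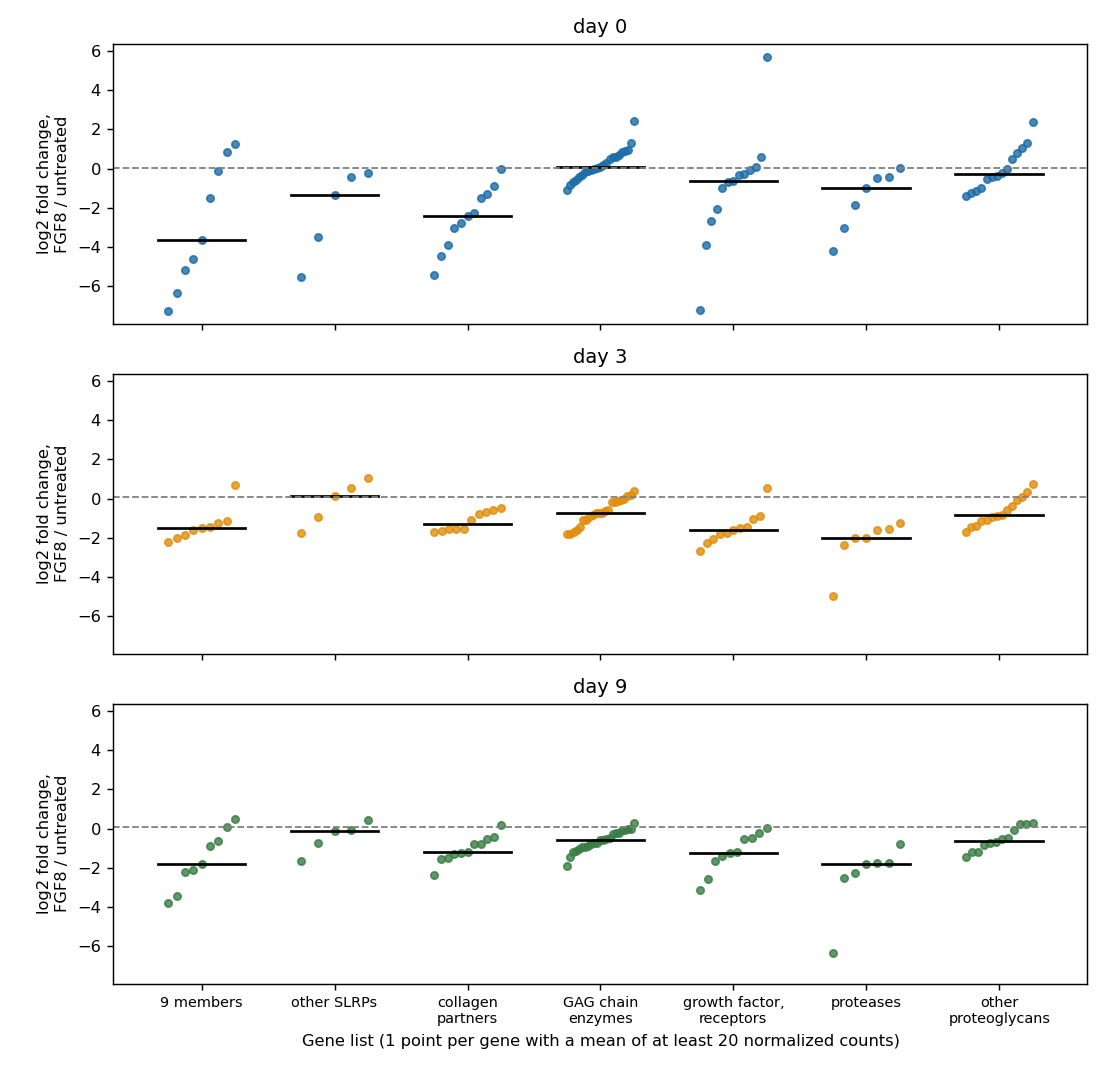
Log2 fold changes of FGF8 against untreated cells at day 0, 3 and 9 for the genes of the members and of the partner lists that passed the filter, 1 point per gene, with a black bar at the list median and a dashed grey line at the median of all genes. The members' medians are -3.65, -1.49 and -1.78, the collagen partners' -2.40, -1.31 and -1.17, and the lowest point of the other family genes at day 0 is Optc, which had 0 counts in the FGF8 library.

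Markers of several cell types were measured beside the members. For the marker counts here and in the next paragraph, too, the background shares are those given above for the members. Of 9 preadipocyte and stromal markers, 6 of 9 were lower and 1 higher at day 0, 6 of 6 lower at day 3 and 6 of 6 lower at day 9, with medians of -1.20, -1.83 and -2.04, and edgeR called 3 of 8 lower, Pdgfra, Pdgfrb and Dlk1. Their summed normalized counts were 31049 to 133199 in the untreated and 7148 to 34268 in the FGF8 libraries, with at most 2 markers at 0 in any library. By its median, this list moved with Ogn, Omd and Podn on every day, and with Dcn and Lum from day 3. At day 0 the median was opposite to Dcn and Lum, but the markers were mixed. While 6 of 9 were lower, Pi16 (2.95) and Thy1 (0.67, within 2-fold) had the higher value in the FGF8 library, like Dcn and Lum. The part of this list in the members' differences was not tested. Of 8 adipocyte markers, 1 of 4 was lower at day 0, 3 of 8 were higher at day 3 and 0 of 8 passed 2-fold at day 9, with medians of -0.57, 0.83 and 0.32. Prelp, which also had the higher value in the FGF8 library at day 3 though within 2-fold, moved with them, and their part was not tested. Of 6 proliferation markers, 0 of 6 passed 2-fold on any day, with medians of 0.18, 0.58 and 0.38.

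Markers of 6 other cell types were measured as well. Of 6 macrophage markers, Adgre1 was at 0 in all libraries, Ptprc had at most 1 count, and the summed normalized counts were 92.5 to 146.9 in the untreated and 60.2 to 112.2 in the FGF8 libraries. Among 6 cartilage and bone markers, Matn1 and Ibsp were at 0 throughout and Sox9 made up most of the sum of 276.8 to 878.2 in untreated and 191.9 to 641.4 in FGF8 libraries. The 4 mesothelial markers summed to 17.8 to 118.5 and 44.2 to 108.9. Of 4 endothelial markers, which summed to 80.2 to 342.2 and 14.7 to 64.0, Tek alone passed the filter and was lower on all 3 days (-2.92, -2.61 and -2.62), and edgeR also called it. The 4 tendon markers summed to 93.7 to 947.4 and 69.9 to 1028, and at day 0 they were split. Tnmd (167 counts in untreated and 2 in FGF8 cells) and Mkx (68 and 32) had the lower value in the FGF8 library. Scx (11 and 56) and Thbs4 (399 and 713) had the higher value there. The 5 mural and smooth muscle markers summed to 2237 to 5890 and 567.1 to 1916, with Acta2 at -2.27, -2.23 and -0.67. At the 2-fold rule, 1, 1 and 1 of 2 macrophage markers were lower on the 3 days, as were 3 of 4, 3 of 5 and 1 of 4 mural, 2 of 4 (with 1 higher), 0 of 1 and 0 of 1 tendon, 0 of 1, 2 of 2 and 0 of 1 cartilage and bone, and 1 of 2, 0 of 1 (with 1 higher) and 0 of 1 mesothelial markers. The part of these lists in the members' differences was not tested.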

How the data were processed

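RNA of 6 cultures was sequenced as stranded mRNA libraries, 1 library per condition. Reads had been trimmed (TrimGalore) and aligned to GRCm39 (HISAT2) by the authors, who deposited raw gene counts made with featureCounts. The annotation, the strand setting and the treatment of multi-mapping reads are not given in the sources used here. Totals were 16403254 to 38551551 counts over 26264 genes, of which 23698 matched 1 gene of GENCODE M39 by symbol.

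Counts were divided by DESeq2 size factors (DESeq2 1.42.0). Between 2 libraries no test was possible, and the log2 fold change (pseudocount 1) carries an exact binomial 95% interval from scipy 1.17.1 (Python 3.11.15, pandas 2.3.3) for counting error only. The shared effects of FGF8 and of day were tested with edgeR 4.0.16 in R 4.3.3 (TMM, filterByExpr, quasi-likelihood, treatment and day as terms, 2 residual degrees of freedom, Benjamini-Hochberg, threshold 0.05). p-values measure the spread between single cultures of different days. TPM used the union of exons of each gene. Scripts were tested on simulated data.

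The members and all lists were chosen with earlier results of these data known. All 9 members are named, as are all tendon markers. From each other list up to 3 genes per day were named, those with the largest log2 fold change at a pair mean of at least 100 normalized counts, and further genes where edgeR called them, where they neighbour a member, or where marker counts were at or near 0, the last chosen after their values were seen. Thy1 at day 0 was also named after its value was seen. The 5 genes most like the members were ranked by Pearson r.

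Alternatives were TMM, total counts, size factors within the pair, pseudocounts of 0.5 and 5, other filters, 1.5-fold and 4-fold rules, DESeq2 tests, fits without a block or a day, and 2 other transcript lengths. The canonical transcript length and the day contrasts without the remaining day were added after seeing the data. No protein sequences were used here.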

Additional observations from a re-analysis of the deposited data

Results flagged for a closer look

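Lum differed from untreated cells in opposite directions at different days, the log2 fold change being 1.25 (day 0), -1.60 (day 3) and -3.80 (day 9). Read along the days, the same libraries gave Lum opposite courses from day 0 to day 9, at 1.23 in untreated and -3.82 in FGF8 cells. This restates the difference between day 0 and day 9 and is not a separate observation. Ogn did the reverse, at -2.27 in untreated and 1.93 in FGF8 cells from day 0 to day 9, since its FGF8 level at day 0 was the lowest of its 6 values. With 1 library per condition, neither the difference between days nor that between arms was tested.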

How the results depend on the processing

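The 9 members' log2 fold changes at the 3 days kept their sign in 135 of 135 recomputations over TMM, total counts, size factors within the pair and pseudocounts of 0.5 and 5. The pseudocounts, with 27 values each, add the same number to both libraries and could not have changed a sign. Only TMM, total counts and size factors within the pair could have done so. The farthest move was that of Fmod at day 0, which rests on 1 count and was -3.75 with a pseudocount of 5. At a 1.5-fold rule, 2 members were higher at day 0 and 1 at day 3. At a 4-fold rule, 0 were higher at day 0 and 5, 1 and 4 members were lower at day 0, 3 and 9, so that day 3 went from the most members lower to the fewest. The shares of all genes at the 1.5-fold and 4-fold rules are not given here.

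The edgeR counts of the shared FGF8 effect depended on the processing. Against 182 genes called lower, DESeq2 called 1220, DESeq2 size factors in edgeR 93, no filter 406 and no day block 0, and leaving out 1 day gave 0 to 1661. Against 3 genes called higher, the same settings gave 472, 1, 13 and 0, and 0 to 569. Against 1 member called lower, DESeq2 called 3, DESeq2 size factors 0 and no day block 0, and leaving out 1 day gave 0 to 7. The 7 came without day 0, where 1661 genes were called lower, and 0 came without day 3 or day 9, where 0 genes were. These fits had fewer samples.

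For the day effects, the fit without the treatment block called 1671 genes lower at day 3 than day 0, against 2884, and 2383 at day 9 than day 0, against 3614, and called 2 genes higher at day 9 than day 3, against 9. DESeq2 called 468 lower and 851 higher from day 3 to day 9, and no filter 69 and 199, against 1 and 9. DESeq2 called 1 member lower in each contrast with day 0, against 0, and 2 members higher at day 9 than day 0, against 1. Leaving out the day outside the contrast was added after seeing the data. From day 0 to day 3 it gave 1607 genes lower and 2287 higher (against 3823) and 0 members higher, against 1. From day 3 to day 9 it gave 1465 and 1578 genes, with 3 members lower and 1 higher, against 0 and 0. Prelp remained called from day 0 to day 9. The causes were not tested. The blocks are day and treatment, since the labels give no replicate number that groups share.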
